A study of Mus musculus with 24 samples.

Results

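The genes described here encode subunits of the oxidative phosphorylation machinery of the mitochondrial inner membrane. They were taken as every gene whose symbol begins with Nduf followed by a, b, c, s or v and a number, with Uqcr, with Cox6b, Cox6c, Cox7b or Cox7c, or with Atp5, together with Sdha to Sdhd, Cox5a and Cox5b. The rule used symbols alone and no measured value. It found 74 genes of the 21364 genes that the arrays name, with 37 genes counted to complex I, 4 to complex II, 8 to complex III, 8 to complex IV and 17 to complex V. These genes were read by 100 probes, and for each gene the probe with the highest mean over all 24 arrays was used. The rule also took in Ndufa4l2, Cox6b2 and Cox7b2, which are paralogs with restricted expression, and Ndufa4, which was counted by its symbol to complex I although its product is also known as a subunit of cytochrome c oxidase.

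Oxidative phosphorylation passes electrons from NADH through complex I and from succinate through complex II to complex III, cytochrome c and complex IV, where oxygen is reduced. Complexes I, III and IV pump protons, and complex V, the ATP synthase, uses the proton gradient to make ATP. Most subunits are encoded in the nucleus, and the subunit genes are known to be highly expressed in the heart, which relies on continuous mitochondrial ATP production.

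The study compared wild-type (WT) mice with mice homozygous for the Rap1 I312R allele (Rap1 KI/KI, labelled RAP1 MUT), a CRISPR knockin in Terf2ip, which encodes the telomere-binding protein RAP1. The allele was made in the germ line, is carried by every tissue, and had been backcrossed 4 times to C57BL/6N mice by the study's methods. Liver, brain, heart and skeletal muscle of the same 6 males, 3 per genotype, were hybridised to 24 single-colour Agilent arrays. The first mouse of each genotype (WT1 and KI1) was 5 months old and the other 4 mice were 2 months old. Since the allele changes codons and does not delete the gene, the level of Terf2ip does not check the labels.

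Levels are given on the log2 scale, as the processed signal of a probe over the 75th percentile of its array, so a level compares arrays for 1 probe and not probes with each other. Between 56.5% and 72.7% of probes were well above background on each array, no spot was saturated, and the number of arrays rather than a read depth limits the precision. The defining markers of each tissue fitted its label. The summed levels of 6 hepatocyte genes were 10.9 to 11.9 in liver and at most 6.95 elsewhere, and 6 cardiomyocyte genes summed to 10.8 to 11.7 in heart and at most 2.63 elsewhere. The 6 livers and the brains of WT1 and KI1 shared a slide, the other 4 brains shared a slide with the hearts of the first and second mice, and the remaining hearts shared a slide with all muscles. Heart and liver, muscle and liver, and muscle and brain shared no slide, and a fit with slide as a block compares these pairs only through the tissues that link the slides. In that fit the median WT difference of the subunit genes was 1.38 for heart minus liver, 1.13 for muscle minus liver and 2.22 for muscle minus brain. In either direction, 65, 43 and 72 genes were called. The share of all tested probes called in that fit was not counted. Without slide in the fit, 22201, 24075 and 25651 of 42463 tested probes were called for these pairs. The RNA kit and beads for heart and muscle also differed from those for brain and liver and cannot be told apart from those tissue pairs.

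The subunit genes were highest in the striated muscles. In WT mice, 68 of the 74 genes were higher in heart than in liver and none was lower at an adjusted p under 0.05 (limma, Benjamini-Hochberg adjustment over 42463 probes), where 24.7% of all tested probes were called higher and 27.6% lower. The median difference was 1.15 on the log2 scale over the subunit genes against -0.03 over all tested probes, and 53 genes were both called and higher by at least 1 (background 21.1%). The counts of 68 and 53 include Cox7b2, which was not well above background in any liver and was tested through the tissues where it is higher. In muscle, 63 genes were higher and 1 was lower than in liver, where the background was 28% higher and 28.7% lower, the median difference was 0.93 against 0.05, and 31 genes were called and higher by at least 1 (background 23.5%). Without WT3, 38 genes were called between muscle and liver in either direction, in place of 64, and the share of all probes was not counted there. Heart was higher than brain for 73 genes with none lower (background 33.2% and 24.8%), with a median of 2.32 against 0.21 and 72 genes called and higher by at least 1 (background 26.4%). Muscle was higher than brain for 71 genes and lower for 2 (background 35.3% and 25.1%), with a median of 2.15 against 0.27 and 71 genes called and higher by at least 1 (background 28.9%). The direction of these 4 medians was the same under every scaling tried, and the lowest value was 0.85 for muscle against liver. In bulk tissue, a lower share of cells rich in mitochondria and less subunit RNA per cell cannot be told apart.

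**Figure D1:**
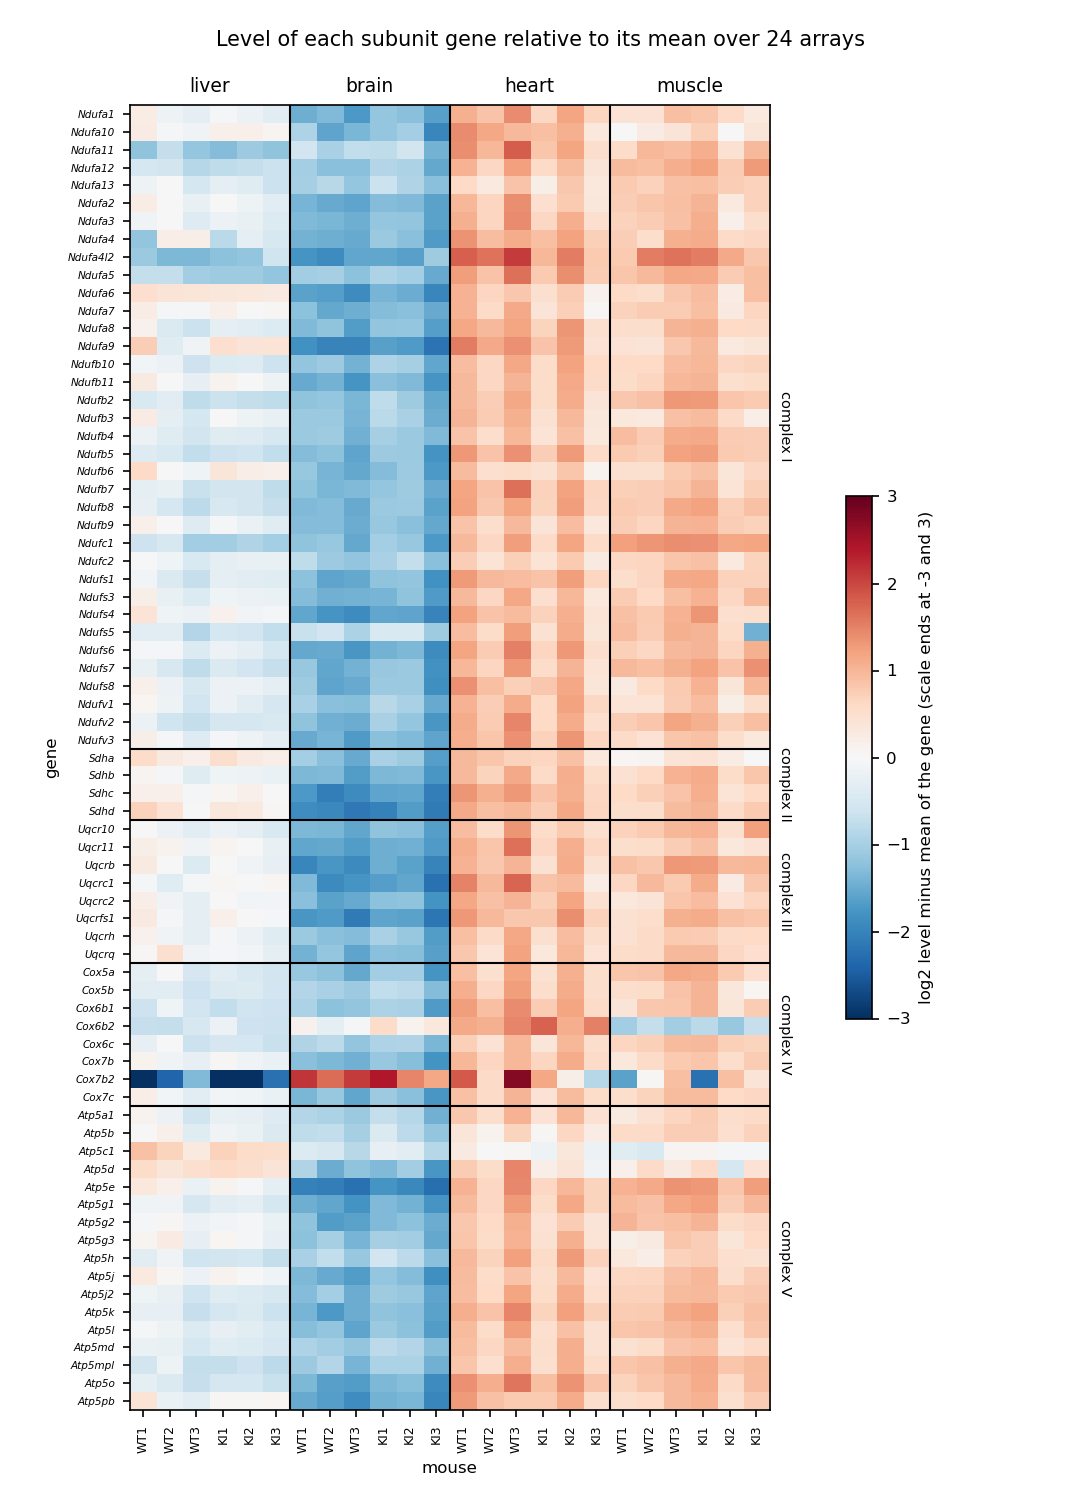
Heat map of the log2 level of 73 of the 74 subunit genes (rows, grouped by complex) on each of the 24 arrays (columns, grouped by tissue and labelled by mouse), relative to the mean of the gene over 24 arrays. Heart and muscle columns are above the gene mean for nearly all rows, brain columns lie lowest for 71 genes in WT under the scaling used but not after quantile normalization, and Cox6b2, Cox7b2 and Atp5c1 depart from the other rows.

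The pattern was shared by the single animals. The heart was above the liver of the same mouse in all 6 mice for 68 of 74 genes, the muscle above the liver for 64, the heart above the brain for 73 and the muscle above the brain for 71. Both counts against liver include Cox7b2, whose liver signals were not well above background. The median level of the 74 genes was 8.10, 7.76 and 8.21 in the hearts of WT1, WT2 and WT3 and 7.67, 8.09 and 7.51 in those of KI1, KI2 and KI3. In livers it was 7.10, 6.91 and 6.63 in WT and 6.91, 6.81 and 6.69 in Rap1 KI/KI mice. Muscles lay between 7.59 and 8.10 and brains between 5.43 and 5.93, so heart and muscle overlapped with each other and neither overlapped with liver or brain. The genes also moved by like amounts. The SD of the heart minus liver difference over the 74 genes was 0.58, against 2.41 over all tested probes. Nearly all 74 genes are bright, while the tested probes include dim ones near background in heart or liver. Probes of like level were not compared, so the 2 SDs are not matched.

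Brain and liver could not be ordered independently of the scaling. Relative to the 75th percentile, 68 subunit genes were lower and 2 were higher in WT brain than in WT liver (background 40% lower and 29.5% higher). The median difference was -1.16 against -0.35 over all probes. After quantile normalization the median was 0.12 against -0.19 over all probes, with 25 genes higher and 10 lower. Under that scaling 29577 probes were called between WT brain and WT liver, and 13403 of them were higher in brain. Higher calls thus made up 45.3% of the called probes and 71.4% of the 35 called subunit genes. The upper part of the signal distribution differed between these tissues. The 98th percentile of an array was 6.68 to 7.08 in liver and 5.37 to 5.63 in brain, and the median percentile rank of the 74 genes was 97.91 to 98.07 in the livers and 98.09 to 98.43 in the brains. By rank, heart at 99.37 to 99.58 and muscle at 99.07 to 99.34 stood above both. Between 48 and 53 subunit genes were above the 99th percentile of each heart array and 39 to 49 of each muscle array, against 7 to 12 in liver and 10 to 19 in brain. The brains and livers on the shared slide (1 brain and 3 livers per genotype) gave medians of -1.02 in WT and -0.85 in Rap1 KI/KI mice.

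**Figure D2:**
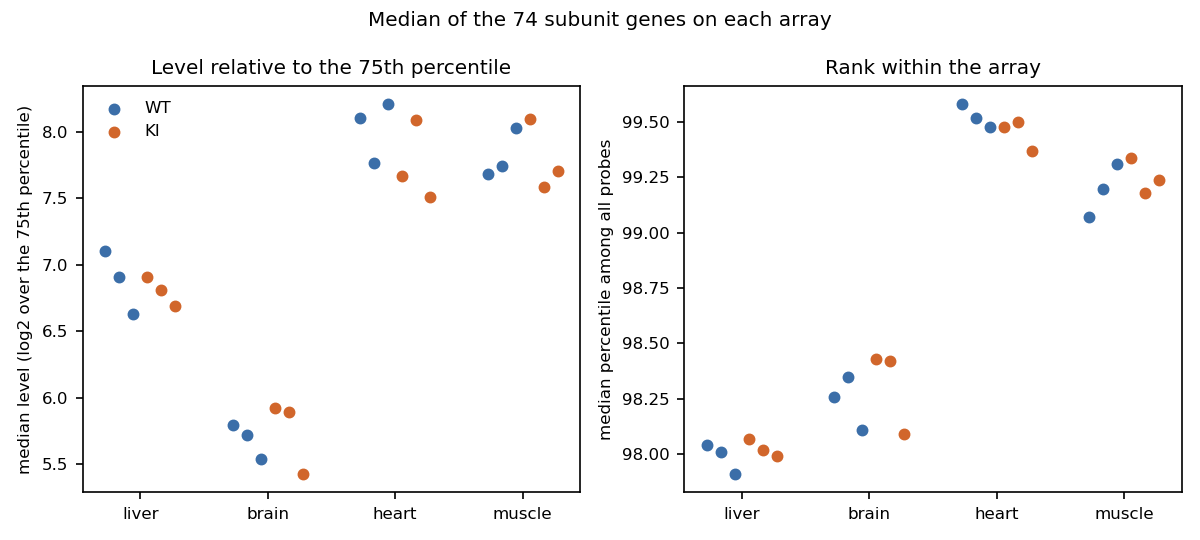
Median over the 74 subunit genes on each array, as log2 level over the 75th percentile (left) and as percentile among all probes of the array (right), 1 point per mouse with WT in blue and Rap1 KI/KI in orange. Brain lies below liver by level and slightly above it by rank, an order that also turns under quantile normalization, while heart and muscle lie above both on either axis.

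Complex I oxidises NADH, and its 37 genes were the largest group. In WT, 35 were higher in heart than in liver (median 1.20), 33 were higher in muscle than in liver (median 1.00), and all 37 were higher in heart than in brain (median 2.41). Ndufa9, a subunit of the matrix arm next to the membrane, had levels of 7.50, 7.11 and 7.35 in WT hearts, 6.71, 5.60 and 5.86 in livers, 4.17, 3.96 and 3.97 in brains and 6.40, 6.35 and 6.77 in muscles. All hearts were above all livers and all brains, by 1.26 (SE 0.28, adjusted p = 0.000709) and 3.29 (SE 0.28, adjusted p = 7.05e-09). Ndufs6, a zinc-binding subunit, stood at 8.96, 8.54 and 9.29 in WT hearts and 7.75, 7.76 and 7.38 in livers, a difference of 1.30 (SE 0.24, adjusted p = 0.000109). The accessory subunit Ndufa5 was higher in heart than in liver by 2.08 (SE 0.22, adjusted p = 1.75e-07), and its brain levels of 6.39, 6.42 and 6.19 were close to its WT liver levels of 6.71, 6.72 and 6.40.

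Ndufa13, Ndufc2 and Ndufs5 had the smallest ranges of WT tissue means in the complex, and each was higher in heart than in liver, by 0.81 (SE 0.22, adjusted p = 0.0038), 0.81 (SE 0.21, adjusted p = 0.00246) and 1.42 (SE 0.42, adjusted p = 0.00814). Without WT3 the differences were 0.52, 0.64 and 1.06 and none of the 3 passed the test, and Ndufs5 also did not pass with slide as a block (adjusted p = 0.0665). Ndufa6, an accessory subunit of the LYR-motif family, stood at 7.31, 6.91 and 7.08 in WT hearts and 6.77, 6.65 and 6.62 in livers, and the difference of 0.42 did not pass the test (SE 0.21, adjusted p = 0.11). Ndufb6, a membrane-arm subunit, differed by 0.52 (SE 0.24, adjusted p = 0.0745). Both were higher in heart than in brain, by 2.54 for Ndufa6 and 2.02 for Ndufb6. The membrane-arm subunit Ndufa11 was 1 of the 2 genes with its lowest WT mean in liver, with levels of 3.03, 3.52 and 3.09 there, 3.68, 3.28 and 3.50 in brain and 5.64, 5.26 and 6.06 in heart. Its liver and brain values overlapped, and heart was higher than liver by 2.44 (SE 0.26, adjusted p = 1.82e-07).

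Complex II, succinate dehydrogenase, links the citric acid cycle to the respiratory chain. Its median difference was 0.84 for heart against liver, 0.47 for muscle against liver and 2.69 for heart against brain in WT. Sdha, the flavoprotein that oxidises succinate, had levels of 7.08, 6.93 and 6.79 in WT hearts, 6.65, 6.36 and 6.24 in livers, 5.09, 4.83 and 4.58 in brains and 6.15, 6.17 and 6.51 in muscles. The hearts were above the livers without overlap, yet the difference of 0.51 did not pass the test (SE 0.22, adjusted p = 0.056), and muscle minus liver was -0.14 (SE 0.22, adjusted p = 0.6). Sdhb, the iron-sulphur subunit, was higher in heart than in liver by 1.04 (SE 0.22, adjusted p = 0.000545). The membrane anchors Sdhc and Sdhd were higher by 1.14 (SE 0.20, adjusted p = 6.33e-05) and 0.64 (SE 0.21, adjusted p = 0.0158). Sdhd did not pass without WT3 (0.46), with the array median, with slide as a block or in a fit of these 6 arrays alone (adjusted p from 0.0919 to 0.138), and Sdha passed with slide as a block (1.00, adjusted p = 0.0124), after quantile normalization (0.95, adjusted p = 8.17e-05) and under 4 other alternatives. Against brain, both anchors showed larger differences than Sdha and Sdhb. Sdhc was higher in heart by 3.12 (SE 0.20), with WT hearts at 6.90, 6.64 and 6.89 and brains at 3.86, 3.52 and 3.69, and Sdhd was higher by 3.00 (SE 0.21), beside 2.10 (SE 0.22) for Sdha and 2.38 (SE 0.22) for Sdhb. Whether these differences differ between the 4 genes was not tested.

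Complex III, the cytochrome bc1 complex, passes electrons from ubiquinol to cytochrome c. All 8 of its genes were called higher in heart than in liver (median 1.07) and than in brain (median 2.62), and 7 were higher in muscle than in liver (median 0.70). Uqcrc1, a core subunit, had levels of 7.33, 6.81 and 7.59 in WT hearts, 5.77, 5.47 and 5.80 in livers, 4.52, 3.93 and 4.08 in brains and 6.46, 6.81 and 6.62 in muscles. Heart was above liver in each of the 3 mice, by 1.56 on average (SE 0.27, adjusted p = 5.93e-05), and above brain by 3.07 (SE 0.27, adjusted p = 1.11e-08). Uqcrfs1, the Rieske iron-sulphur protein, was higher in heart than in liver by 1.05 (SE 0.24, adjusted p = 0.00108) and than in brain by 2.88. Uqcrb, a ubiquinone-binding protein, differed by 1.01 (SE 0.22, adjusted p = 0.000719) and 2.83. The small subunits Uqcr10, Uqcrq and Uqcrh had the smallest ranges, with heart minus liver differences of 1.10, 0.67 and 0.96 and heart minus brain differences of 2.36, 2.20 and 2.10. For Uqcrq the difference from liver was 0.36 without WT3, and it did not pass the test there, without WT1, with the array median, with slide as a block or in a fit of the 6 arrays alone (adjusted p from 0.0983 to 0.319).

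Complex IV, cytochrome c oxidase, is represented by the nuclear subunits that have no heart isoform, plus the paralogs Cox6b2 and Cox7b2. All 8 genes were called higher in heart than in liver (median 1.26), and 7 of 8 were called higher in heart than in brain (median 2.06). The count and median against liver include Cox7b2, which was not well above background in any liver. It was tested through the tissues where it is higher. Cox6b1, which lies on the intermembrane side of the dimer, stood at 5.77, 5.41 and 5.93 in WT hearts, 3.88, 4.37 and 3.93 in livers, 3.55, 3.28 and 3.32 in brains and 4.88, 5.32 and 5.35 in muscles. Heart and muscle were above liver and brain without overlap, and heart minus liver was 1.64 (SE 0.24, adjusted p = 1.17e-05). Cox5a and Cox7b were higher in heart than in liver by 1.11 (SE 0.25, adjusted p = 0.000818) and 0.96 (SE 0.20, adjusted p = 0.000564), and than in brain by 2.15 and 2.23. Cox5b and Cox6c, with smaller ranges, differed from liver by 1.41 (SE 0.24, adjusted p = 6.63e-05) and 1.02 (SE 0.22, adjusted p = 0.000584).

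Complex V, the ATP synthase, had 14 of 17 genes called higher in heart than in liver (median 1.02) and all 17 called higher in heart than in brain (median 2.18). Among the 6 genes of the F1 head and central stalk and its connection, 3 were called against liver. Atp5o, which joins the head to the peripheral stalk, stood at 7.64, 7.37 and 7.87 in WT hearts, 6.004, 5.83 and 5.58 in livers, 4.93, 4.64 and 4.60 in brains and 6.95, 7.09 and 7.24 in muscles. It was 1.82 higher in heart than in liver (SE 0.22, adjusted p = 6.1e-07). Atp5b, the catalytic beta subunit, stood at 8.71, 8.45 and 9.01 in hearts and 8.32, 8.50 and 7.97 in livers, which overlapped, and the difference of 0.45 did not pass the test (SE 0.22, adjusted p = 0.0907). The alpha subunit Atp5a1 was higher by 1.02 (SE 0.23, adjusted p = 0.000859), and the delta subunit Atp5d differed by 0.47 (SE 0.29, adjusted p = 0.182). Atp5e, the epsilon subunit of the stalk, had the largest heart minus brain difference of the complex in WT at 3.16 (SE 0.22, adjusted p = 6.41e-10), beside 0.95 (SE 0.22, adjusted p = 0.00125) against liver, which was 0.61 without WT3 and did not pass (adjusted p = 0.0607). The Atp5b difference from liver passed after quantile normalization (0.66), with the z-scores (0.80) and without WT2 (0.71).

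The c-ring of complex V is encoded by Atp5g1, Atp5g2 and Atp5g3, which give the same mature protein from different precursors. All 3 genes were higher in heart than in liver, by 1.19 (SE 0.21, adjusted p = 0.000102) for Atp5g1, 0.88 (SE 0.18, adjusted p = 0.000472) for Atp5g2 and 0.78 (SE 0.23, adjusted p = 0.00857) for Atp5g3. Atp5g3 did not pass without WT3 (0.53, adjusted p = 0.116) or with slide as a block (0.92, adjusted p = 0.0581). Against brain the heart was higher by 2.55, 2.31 and 2.01 in the same order. Atp5g1 had levels of 9.01, 8.93 and 9.21 in WT muscles and 7.92, 7.94 and 7.55 in livers, a difference of 1.25 (SE 0.21, adjusted p = 5.6e-05). Atp5g3 had levels of 7.97, 8.08 and 8.63 in muscles and 7.88, 8.05 and 7.57 in livers, and its difference of 0.39 did not pass the test (SE 0.23, adjusted p = 0.162). Atp5k, a subunit of the membrane part linked to dimers of the enzyme, was higher in heart than in liver by 1.54 (SE 0.22, adjusted p = 5.7e-06).

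**Figure D3:**
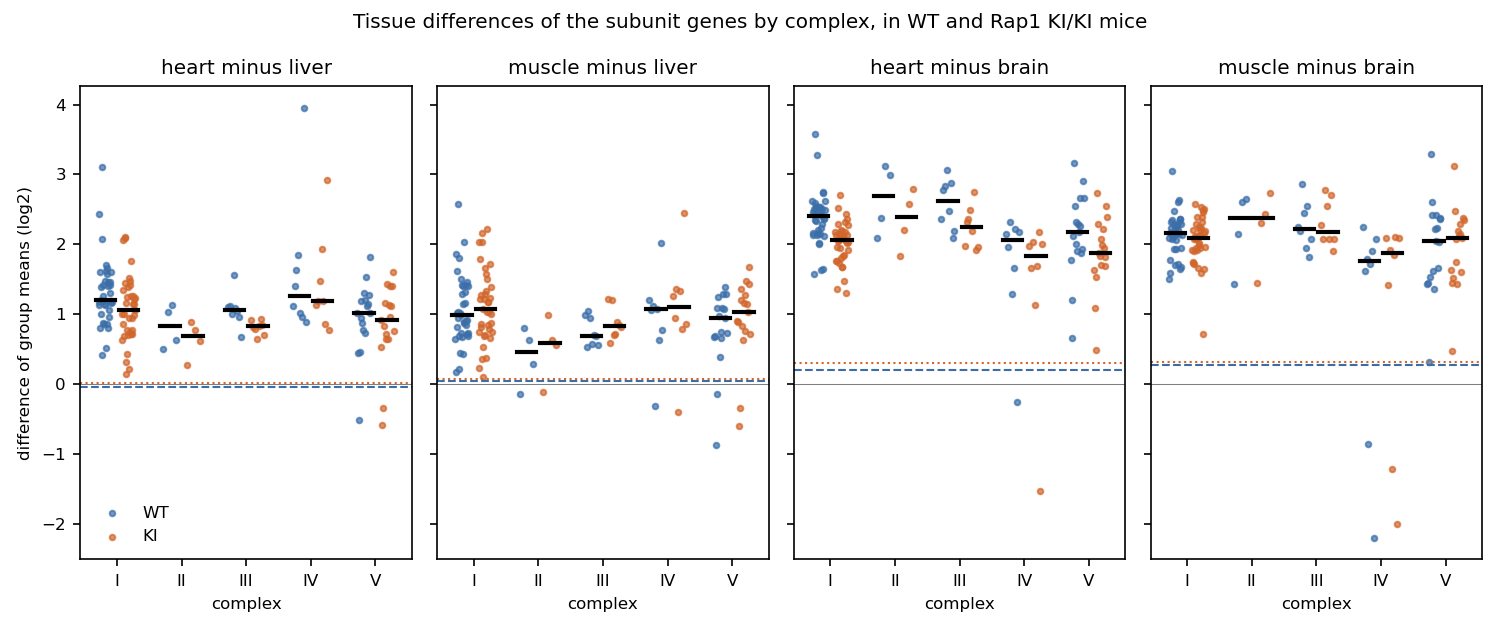
Difference of group means on the log2 scale for each subunit gene (points) by complex, in WT (blue) and Rap1 KI/KI mice (orange), for heart and muscle each against liver and brain, with black bars for the median of a complex and broken lines for the median over all tested probes (dashed WT, dotted KI). In every complex the median lies above the broken lines in these panels, from 0.47 for complex II in muscle minus liver to 2.69 for complex II in heart minus brain in WT.

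Atp5c1, the gamma subunit of the rotating stalk, was the only member with its highest WT mean in liver, and its probes disagreed. The brighter probe stood at 7.15, 6.95 and 6.56 in WT livers, 5.86, 5.80 and 5.45 in brains, 6.55, 6.26 and 6.31 in hearts and 5.91, 5.81 and 6.36 in muscles. Heart minus liver was -0.51 (SE 0.22, adjusted p = 0.0567; it passed without WT3 at -0.64 and under 2 other fits or filters), and muscle was lower than liver by -0.86 (SE 0.22, adjusted p = 0.00234). The dimmer probe for the same transcript accession gave means of 5.18 in liver, 3.83 in brain, 6.58 in heart and 6.30 in muscle, so that heart was higher than liver by 1.40 (SE 0.24, adjusted p = 4.7e-05). The order of liver and heart for Atp5c1 thus depended on the probe, and the order of heart and brain for its brighter probe turned under quantile normalization.

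The 26 further probes belong to 20 of the genes. Of these probes, 24 were called higher and 1 lower in heart than in liver (background 24.7% and 27.6%). A dimmer probe of a complex I gene was not called in that pair (0.57, SE 0.34, adjusted p = 0.167). All 26 were called higher in heart than in brain (background 33.2%). In muscle 21 were called higher and 1 lower than in liver (background 28% and 28.7%), and the others were not called. The probe called lower in heart than in liver was a dimmer probe of Ndufv3, a flavoprotein-arm subunit of complex I. It had WT means of 1.90 in liver, -0.03 in brain, 1.12 in heart and -0.54 in muscle, and heart was lower than liver by -0.78 (SE 0.20, adjusted p = 0.0027). The brighter probe of Ndufv3 had means of 7.51, 6.07, 8.69 and 8.21 in the same order of tissues.

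The paralogs Cox6b2 and Cox7b2 had their own tissue orders, while Ndufa4l2 was highest in heart and lowest in brain in WT, like most members. Ndufa4l2, a hypoxia-responsive relative of Ndufa4, stood at 3.30, 3.14 and 3.61 in WT hearts, 2.30, 3.05 and 3.13 in muscles, 0.41, 0.17 and 0.16 in livers and -0.25, -0.36 and -0.06 in brains. Heart was higher than liver by 3.11 (SE 0.27, adjusted p = 7.8e-09) and than brain by 3.58 (SE 0.27, adjusted p = 1.62e-09). Cox6b2, the testis form of subunit VIb, stood at 0.60, 0.53 and 0.93 in WT hearts, -0.41, -0.83 and -0.60 in brains, -1.22, -1.26 and -1.02 in livers and -1.57, -1.25 and -1.58 in muscles. It was higher in heart than in muscle by 2.15 (SE 0.21, adjusted p = 2.13e-07), the largest called difference between these tissues among the 74 genes, and muscle and liver differed by -0.30 (SE 0.21, adjusted p = 0.239). Cox7b2, the testis form of subunit VIIb, was not well above background in any liver. Its WT level was at least 5.45-fold higher in brain and at least 4.59-fold higher in heart than in liver, each against the higher of the probe's own liver signal and the lowest signal among probes well above background on that array. Heart minus brain for Cox7b2 was -0.25 (SE 0.77, adjusted p = 0.802).

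**Figure D4:**
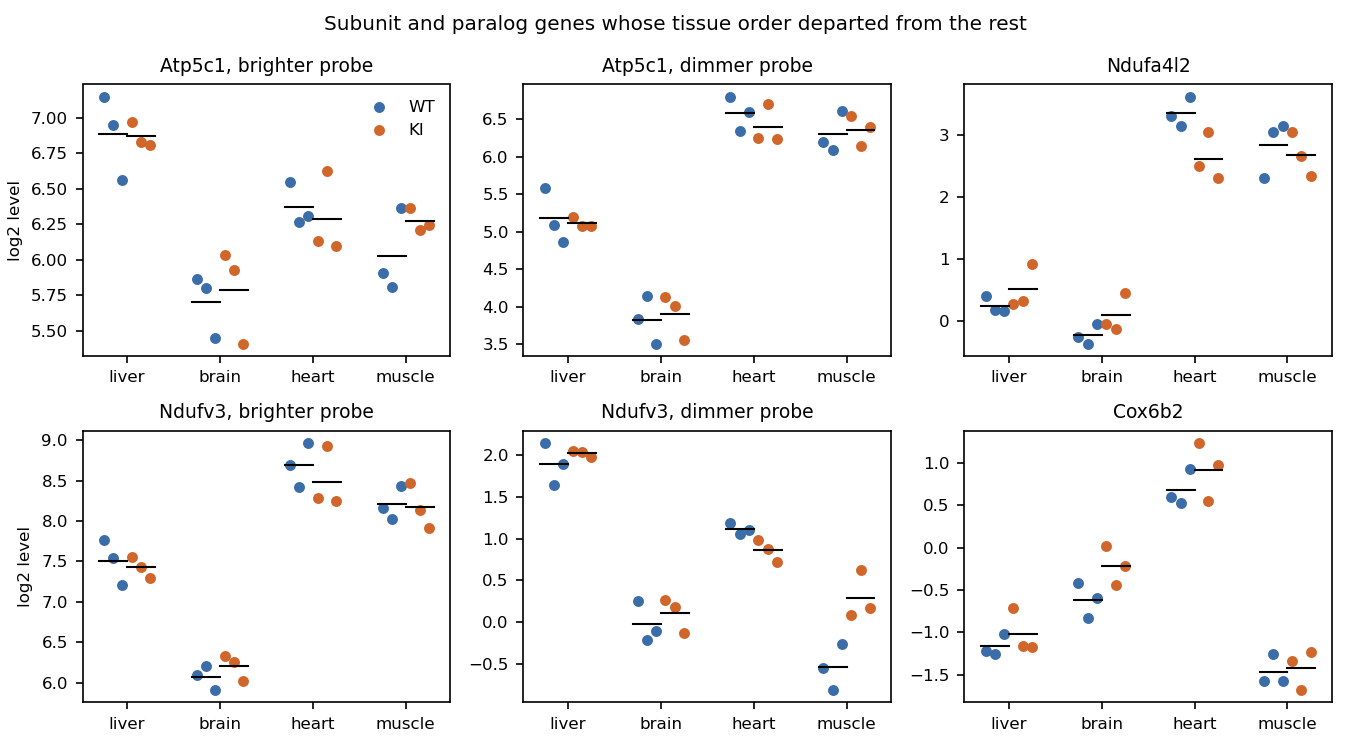
Log2 level in each mouse by tissue (points, WT blue and Rap1 KI/KI orange, bars for group means, axes not starting at 0) of both probes of Atp5c1 and Ndufv3 and of the paralogs Ndufa4l2 and Cox6b2. The brighter Atp5c1 probe is highest in liver and the dimmer one in heart, and Cox6b2 is highest in heart and lowest in muscle.

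Heart and muscle were close. In WT, 5 genes were higher in heart and none was lower (background 15.1% and 15.9%), with a median of 0.26 against -0.09 over all probes, and the heart was above the muscle of the same mouse in all 6 mice for only 2 of 74 genes. The called genes were Cox6b2, Ndufa10 (0.96, SE 0.27, adjusted p = 0.00876), Ndufa9 (0.81, SE 0.28, adjusted p = 0.0317), Sdha (0.66, SE 0.22, adjusted p = 0.0276) and the small complex III subunit Uqcr11 (0.59, SE 0.21, adjusted p = 0.0429). The count of called genes ran from 1 to 45 over the scalings, background corrections and fits tried. Over the scalings and background corrections, 11690 to 13955 of all tested probes were called. The count of subunit genes was 1 without WT1 or WT2 and 3 without WT3. In Rap1 KI/KI mice the median was -0.03, with Cox6b2 as the only called gene (background 13.2% higher and 14.5% lower), and it was 0.29 after quantile normalization. The number of genes with heart above muscle was 67, 41 and 58 in WT1, WT2 and WT3 and 4, 73 and 15 in KI1, KI2 and KI3. The 6 marker genes of slow and oxidative fibres (Myh7, Tnni1, Tnnt1, Myl3, Myh2 and Mb) summed to 7.47, 8.81 and 9.64 in the muscles of WT1, WT2 and WT3 and 10.54, 8.47 and 9.50 in those of KI1, KI2 and KI3, and their part in this difference was not tested.

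The Rap1 KI/KI mice, which are other animals, gave the tissue differences a second time. Heart was higher than liver for 67 genes and lower for 1 (background 28.6% and 29.5%), with a median of 0.95, and muscle was higher for 65 and lower for 1 (background 31.5% and 29.9%), with a median of 1.00. Heart was higher than brain for 72 genes and lower for none (background 33.1% and 22.2%) with a median of 2.04, and muscle was higher than brain for 70 and lower for 2 (background 33.9% and 23.4%) with a median of 2.09. The gene lower in heart than in liver was Atp5c1, by -0.58 (SE 0.22, adjusted p = 0.0282). Brain was lower than liver for 61 genes and higher for 2 (background 40.8% and 29.3%), with a median of -1.06 that became 0.15 after quantile normalization. The comparisons of 1 genotype share arrays of liver, brain, heart or muscle with each other and are not independent.

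Genes that work with the complexes were compared in the same fit for WT. Of 44 assembly factors, which build the complexes but are not part of them, 18 were higher and 7 lower in heart than in liver (median 0.44, where 24.7% of all tested probes were higher and 27.6% lower), and 38 were higher in heart than in brain (median 1.48, background 33.2%). Cox17, a copper chaperone for complex IV, was higher in heart than in liver by 2.74 (SE 0.30, adjusted p = 2.11e-07), and Sco2, another copper chaperone, was lower, by -2.67 (SE 0.28, adjusted p = 1.25e-07). Of 17 regulators of mitochondrial biogenesis, 7 were higher and 4 lower in heart than in liver (median -0.20). Those higher were the coactivators Ppargc1a (3.33, SE 0.29), Ppargc1b (1.35, SE 0.27) and Pprc1 (0.67, SE 0.18), the oestrogen-related receptors Esrra (1.96, SE 0.26), Esrrb (5.47, SE 0.63) and Esrrg (4.40, SE 0.56), and Tfb2m (0.68, SE 0.24), a mitochondrial transcription factor. Those lower were the nuclear receptor Ppara (-2.06, SE 0.34), the mitochondrial DNA polymerase Polg (-0.90, SE 0.19), the mitochondrial transcription factor Tfam (-0.78, SE 0.27) and Yy1 (-0.61, SE 0.17). Of 11 genes for cytochrome c and nucleotide exchange, 9 were higher and 1 lower (median 1.67), with Slc25a4, the ATP/ADP carrier of muscle, at 5.43 (SE 0.23, adjusted p = 1.91e-13).

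Mitochondrial genes outside the pathway were used as a reference for mitochondrial content. Over 20 such genes (protein import, chaperones, dynamics and others), the median heart minus liver difference was 0.38, and the median of the subunit genes was higher by 0.77. For muscle against liver the reference median was -0.11 and the subunit genes were higher by 1.04. For heart against brain the reference median was 1.99 and the subunit genes were higher by 0.33. The reference genes thus differed from brain nearly as much as the subunit genes did, and from liver much less, which is given here as a description without a test.

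Promoters were read for the 62 of 74 genes found in the RefSeq table of mouse promoters (GRCm38.p6), from 250 bases before to 50 bases after the start site, because the genes moved together across tissues. The palindrome of nuclear respiratory factor 1 (NRF1) was present in 4 of the 62 genes (6.45%) and in 1.07% of 27025 genes, and its shorter form GCATGCGC, which lies within it, in 9 (14.5%) against 3.05%. The letters TCAAGGTCA of oestrogen-related receptors (ERR) were present in 2 genes (3.23% against 0.466%), and the shorter AAGGTCA within them in 8 (12.9% against 5.38%). CCGGAAGT, a GABP motif, was present in 4 (6.45% against 4.31%). The YY1 motif was present in 4 (Ndufa9, Ndufs4, Ndufs6 and Ndufs7), or 6.45% against 0.755%. Both strands were searched, and a match is a description of letters and not a site. The promoters that hold the complete NRF1 or ERR letters are printed here because they are the members with these matches, with the letters in capitals, from 5′ to 3′ on the strand of the gene. The windows lie at chr15:102670998-102671297, minus strand (Atp5g2), chr5:108434350-108434649, minus strand (Atp5k), chr17:56717512-56717811, plus strand (Ndufa11), chr9:108936398-108936697, plus strand (Uqcrc1), chr2:73911277-73911576, minus strand (Atp5g3) and chr9:50603800-50604099, minus strand (Sdhd). In Atp5g2, Atp5k and Ndufa11 the palindrome begins at -42, -50 and -60 from the start site, and in Uqcrc1 at 30. Atp5k also holds AAGGTCA, likewise in capitals, and in Atp5g3 and Sdhd the ERR letters lie on the opposite strand and read TGACCTTGA.
Atp5g2: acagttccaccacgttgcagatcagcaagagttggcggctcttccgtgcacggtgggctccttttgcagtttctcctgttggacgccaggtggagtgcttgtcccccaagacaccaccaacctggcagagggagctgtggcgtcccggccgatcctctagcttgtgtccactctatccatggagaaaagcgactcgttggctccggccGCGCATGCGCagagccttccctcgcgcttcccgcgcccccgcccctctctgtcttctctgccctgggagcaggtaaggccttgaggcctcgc
Atp5k: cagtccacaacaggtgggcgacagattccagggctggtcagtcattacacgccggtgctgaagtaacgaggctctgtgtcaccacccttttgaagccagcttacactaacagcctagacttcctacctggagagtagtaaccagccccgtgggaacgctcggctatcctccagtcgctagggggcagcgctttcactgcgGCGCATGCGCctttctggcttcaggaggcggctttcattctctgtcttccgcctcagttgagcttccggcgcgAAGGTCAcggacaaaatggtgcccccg
Ndufa11: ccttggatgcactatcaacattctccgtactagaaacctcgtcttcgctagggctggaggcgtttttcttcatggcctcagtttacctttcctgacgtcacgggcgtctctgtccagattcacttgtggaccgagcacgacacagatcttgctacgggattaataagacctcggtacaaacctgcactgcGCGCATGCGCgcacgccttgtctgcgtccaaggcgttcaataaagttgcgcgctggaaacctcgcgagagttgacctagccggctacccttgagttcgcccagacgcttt
Uqcrc1: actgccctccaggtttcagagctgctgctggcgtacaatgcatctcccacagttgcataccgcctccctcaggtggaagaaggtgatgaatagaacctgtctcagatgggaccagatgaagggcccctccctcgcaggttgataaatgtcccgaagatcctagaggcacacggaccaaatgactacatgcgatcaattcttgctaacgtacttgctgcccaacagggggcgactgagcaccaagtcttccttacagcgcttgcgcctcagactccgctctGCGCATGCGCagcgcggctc
Atp5g3: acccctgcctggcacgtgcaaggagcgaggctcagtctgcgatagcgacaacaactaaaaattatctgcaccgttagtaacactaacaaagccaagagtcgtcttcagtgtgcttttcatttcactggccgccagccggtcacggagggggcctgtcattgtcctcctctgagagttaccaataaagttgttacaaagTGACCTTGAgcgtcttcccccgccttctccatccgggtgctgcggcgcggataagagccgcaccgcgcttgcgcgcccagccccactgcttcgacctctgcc
Sdhd: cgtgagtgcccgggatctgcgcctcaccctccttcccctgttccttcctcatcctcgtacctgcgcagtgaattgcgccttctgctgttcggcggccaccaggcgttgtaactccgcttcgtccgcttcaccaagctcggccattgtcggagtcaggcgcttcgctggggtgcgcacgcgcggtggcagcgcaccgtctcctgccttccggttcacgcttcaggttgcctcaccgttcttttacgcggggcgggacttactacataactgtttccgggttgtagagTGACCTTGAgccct
The heart minus liver differences of the genes shown ran from 0.64 for Sdhd to 2.44 for Ndufa11. Apart from the paralogs Ndufa4l2 and Cox7b2, that of Ndufa11 was the largest among the members. A relation between these letters and the tissue differences was not tested.

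Between genotypes, no subunit gene passed the test in any tissue. Of the 74 genes, 0 were called at an adjusted p under 0.05 in liver, brain, heart or muscle (limma, 6 arrays per tissue), where 0% of all tested probes were called in each tissue. The median Rap1 KI/KI minus WT difference was -0.08 in liver, 0.05 in brain, -0.26 in heart and 0.03 in muscle, against -0.01, -0.05, -0.02 and -0.07 over all tested probes, and the sign in liver and in muscle turned under at least 1 other scaling. Over the scalings the heart median ran from -0.43 with the array median to -0.08 after quantile normalization. Leaving out each mouse, it ran from -0.43 to -0.13 in heart and from -0.05 to 0.22 in brain, so that the sign in brain also turned. At an unadjusted p under 0.05 (limma), 3 genes were lower in heart and none was higher. In heart 7.51% of tested probes were at this level in either direction, and 2.42% were lower. No gene was counted in liver, brain or muscle (background 2.13%, 2.62% and 2.48%). The heart count was 0 without KI3, WT1 or WT3, 1 without KI1, 6 without WT2, 7 with the array median and 5 in a fit of all 24 arrays. The share of all probes at this level was not counted under these alternatives. The interaction of genotype and tissue was called for 0 genes (background 0%), and Ndufa4l2 alone had an unadjusted interaction p under 0.05, at 0.0437 (background 2.93%).

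The 3 heart genes were those whose groups did not overlap, where 14.7% of tested probes did not. Ndufa4l2 stood at 3.30, 3.14 and 3.61 in WT hearts and 2.50, 3.04 and 2.30 in Rap1 KI/KI hearts, a difference of -0.74 (SE 0.27). Atp5d stood at 6.92, 6.71 and 7.63 in WT and 6.36, 6.54 and 6.05 in Rap1 KI/KI hearts, a difference of -0.77 (SE 0.30). Uqcrc1 stood at 7.33, 6.81 and 7.59 in WT and 6.69, 6.79 and 6.07 in Rap1 KI/KI hearts, a difference of -0.73 (SE 0.30). For each gene the Rap1 KI/KI heart nearest to the WT hearts was that of KI2. Each had a limma adjusted p of 0.646 and a two-sided exact permutation p of 0.1, the smallest that 20 splits of 3 against 3 allow.

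The heart medians differed between single mice. Relative to the WT mean, the median over the 74 genes was 0.05, -0.27 and 0.24 in WT1, WT2 and WT3 and -0.39, 0.13 and -0.46 in KI1, KI2 and KI3. In KI1 and KI3 1 gene of 74 was above its WT mean, in KI2 53 were, and in WT2 0 were. The shift ran through the complexes. In KI3 the median was -0.57 for complex I, -0.45 for complex II, -0.48 for complex III, -0.32 for complex IV and -0.38 for complex V. Without the hearts of KI1 and KI3 the median genotype difference was 0.13, in place of -0.26, with 1 Rap1 KI/KI heart left. Within slides it was -0.04 for 2 hearts per genotype and -0.68 for the other pair. The upper part of the signal distribution also differed between hearts. The 98th percentile of the array was 6.13 in KI1 and 6.08 in KI3, against 6.24 to 6.55 in the other hearts. By percentile rank, the median of the 74 genes was 99.58, 99.52 and 99.48 in WT1, WT2 and WT3. It was 99.48, 99.5 and 99.37 in KI1, KI2 and KI3, so by rank KI1 did not lie below all WT hearts.

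Adipocyte genes were high in the same hearts. The summed level of 7 adipocyte genes was 7.46 in KI1 and 8.62 in KI3, against 1.21, 4.99 and 4.85 in WT1, WT2 and WT3 and 5.20 in KI2. All 7 were well above background in KI1 and KI3 and 6 of 7 in the other hearts. Ucp1, which defines brown fat, was at 4.96 in KI1 and 5.93 in KI3 and between -7.72 and -1.03 in the other 4 hearts. Cardiomyocyte genes summed to 10.83 and 11.02 in KI1 and KI3, and lay between 10.8 and 11.7 over all hearts. Of 8 neuronal and glial genes, 8 were well above background in KI1 and 7 in KI3, against 6 in each other heart, while their summed level was 6.56 and 7.32 in KI1 and KI3 and between 6.62 and 7.75 in the others. Syt1, of synaptic vesicles, was at -2.21 in KI1 and -0.08 in KI3 and at most -5.64 elsewhere, and the astrocyte transporter Slc1a3 was at -0.56 and -0.12 against at most -1.97. The 20 mitochondrial reference genes had medians of 5.42 and 4.84 in KI1 and KI3 and 5.52 to 5.85 in the other hearts. The part of adipose or neural tissue in the subunit values of these hearts was not tested.

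**Figure D5:**
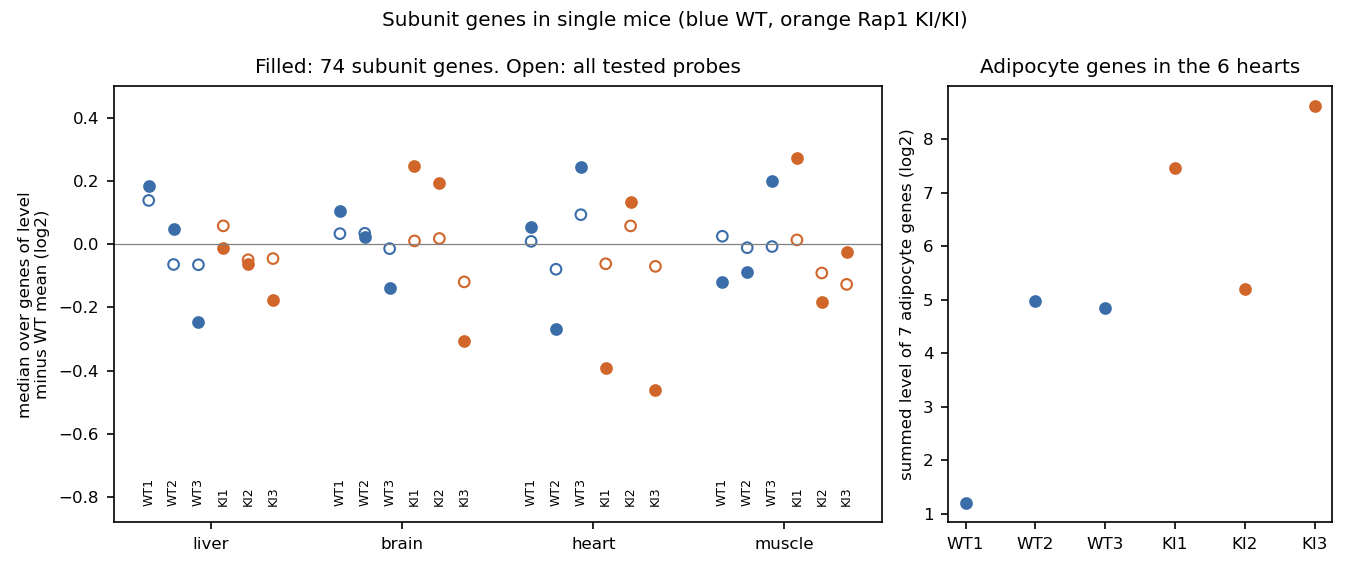
Left, median over the 74 subunit genes (filled) and over all tested probes (open) of the log2 level minus the WT mean of the tissue, for each mouse (WT blue, Rap1 KI/KI orange). Right, summed log2 level of 7 adipocyte genes in the 6 hearts; the hearts of KI1 and KI3 have the lowest subunit medians, -0.39 and -0.46, and the highest adipocyte sums.

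In the other tissues the mice of each genotype overlapped for nearly every subunit gene. In liver, Ndufa5 was below all WT values in all Rap1 KI/KI mice, with 6.36, 6.36 and 6.25 against 6.71, 6.72 and 6.40 (-0.28, SE 0.19, two-sided exact permutation p = 0.1). Ndufa6 likewise did not overlap (-0.11), and Uqcrc1 was above WT with 5.88, 5.82 and 5.90 against 5.77, 5.47 and 5.80 (0.18, SE 0.19), where 5.84% of all tested probes did not overlap. No gene was without overlap in brain or muscle (background 7.73% and 6.44%). The smallest limma p in brain was that of Cox6b2 (0.40, SE 0.21, two-sided exact permutation p = 0.2). In muscle it was that of the complex I subunit Ndufs5 (-0.86, SE 0.60, two-sided exact permutation p = 0.3), whose level was 5.62 in KI3 and 7.62 to 8.11 in the other 5 muscles, and without the muscle of KI3 the difference was -0.12. That muscle also had the highest levels of the glial and neuronal genes Gfap (1.94), Slc1a2 (0.47) and Stmn2 (2.45) among the muscles, and their part in the Ndufs5 value was not tested.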

How the data were processed

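RNA of 4 tissues was labelled with Cy3 from 200 ng total RNA and hybridised to Agilent arrays, read by the authors with Feature Extraction 12.0.3.1 per the file headers. The deposited intensity values are processed signals, background-subtracted by that software. The deposited series table holds scores that, judged from their values alone, are within-array z-scores of the log10 signals. They were used only as an alternative, after multiplication by 4.234 to the log2 scale. Of 55681 probes, 28325 were named through their accession. Outlier-flagged spots were left out, spots of a probe were averaged, and the log2 of the deposited intensity was set against each array's 75th percentile. Tissue contrasts used 1 limma fit of 24 arrays in 8 groups, over 42463 probes that exceeded background clearly on 3 or more of the 6 arrays of some tissue. Genotype contrasts used the 6 arrays of a tissue (32378 to 37835 probes). Calls are at a Benjamini-Hochberg adjusted p under 0.05 over all tested probes (R 4.3.3, limma 3.58.1).

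Exact permutation tests were two-sided. The genes named were those of complex II, the c-ring genes, the paralogs, in each of the other complexes the 3 with the largest and the 3 with the smallest range of WT tissue means, members highest in liver or brain, members called between heart and muscle, and between genotypes the smallest p per tissue; Ndufa5, Ndufa6, Ndufa11, Ndufb6, Ndufv3 and the genes of other lists were added for their place in a count or as the smallest p of a list. The members, lists and this rule were chosen with earlier results of these data known. The labels give 6 mice with 4 tissues each, which pairs the tissues: over 36 pairs of tissues of a genotype and mouse, deviations from group means correlated between -0.219 and 0.262 (median 0.047, 9 above 0.1), and the mouse as a random block gave a consensus correlation of 0.0258. Alternatives were quantile normalization, the array median, normexp background correction, the z-scores, other filters, the mean of all probes, slide, age or mouse as a block, other fits, and leaving out each mouse. A member enters the counts and medians but is not reported by name here.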

Additional observations from a re-analysis of the deposited data

Results flagged for a closer look

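Uqcrc1 was the only subunit gene whose genotype difference ran in opposite directions without overlap in different tissues. It was -0.73 in heart, where all 3 Rap1 KI/KI mice lay below all 3 WT mice, and 0.18 in liver, where all 3 lay above. The difference between tissues did not pass its test (limma interaction F test, unadjusted p = 0.14). The hearts of KI1 and KI3, the lowest for Uqcrc1 at 6.69 and 6.07, are those with the highest adipocyte sums, and the part of these in the value was not tested.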

How the results depend on the processing

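Heart and muscle stayed above liver and brain in the median of the subunit genes under every alternative run. After quantile normalization the brain minus liver median turned to 0.12 in WT (35 genes called) and 0.15 in Rap1 KI/KI mice (41 called). In WT and Rap1 KI/KI, the other medians were 1.50 and 1.35 for heart minus liver and 1.35 and 1.23 for heart minus brain. For muscle minus brain they were 0.89 and 0.93. Between heart and muscle 45 and 22 genes were called. Of all 42463 tested probes, 29577 and 29646 were called between brain and liver and 13955 and 12405 between heart and muscle. With the array median the subunit medians were -1.51 for brain minus liver and 2.41 for muscle minus brain in WT. In Rap1 KI/KI heart minus liver was 0.62. Between heart and muscle in WT 1 gene was called (11690 of all tested probes). In Rap1 KI/KI 37 genes were called between heart and liver (24882 probes) and 42 between muscle and liver (25386 probes). With the z-scores, in WT and Rap1 KI/KI, brain minus liver was -0.66 and -0.42 and muscle minus liver 1.28 and 1.45. In Rap1 KI/KI heart minus liver was 1.38, and 37 genes were called between brain and liver (28818 of all tested probes). Calls between heart and muscle in WT were 15 with normexp (13706 of all tested probes) and 9 with the mean of all probes (13628 probes). They were 9 with a trend and robust fit, 2 with slide as a block and 3 from those 6 arrays alone. In Rap1 KI/KI they were 2 with the mean of all probes (12255 probes) and 0 without the paralogs. Leaving out each mouse gave 1 to 5 calls between heart and muscle in WT and 1 to 2 in Rap1 KI/KI. Between muscle and liver in WT it gave 38 (without WT3) to 64. Among the alternatives, calls over all probes were counted only for the scalings, normexp and the mean of all probes. Without the hearts of KI1 and KI3, chosen after seeing the data, heart minus liver in Rap1 KI/KI was 1.30 and the genotype difference in heart 0.13. Atp5c1 turned to -0.24 for heart minus brain (quantile) and 0.45 for heart minus liver (mean of both probes), and Cox7b2 heart minus brain to 0.0781 (normexp), 0.0381 (quantile) and, leaving out each mouse, -0.705 to 0.18. The causes were not tested. With the mouse as a replicate block, 68 genes were called between heart and liver in WT and 0 between genotypes, and it changed no other call count by over 1.5 times. The all-probe brain minus liver median in WT moved from -0.69 to -0.08 over the scalings, and the subunit median relative to it from -0.82 to 0.31. With normexp, calls over all probes were 63.3% higher for muscle against liver (49.4% otherwise), 75.8% for muscle against brain (58.4%) and 34.9% for heart against muscle (48.8%) in WT.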

Other observations

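Among the 26 further probes no genotype difference was called in any tissue, where 0% of all tested probes were called. At an unadjusted p under 0.05 (limma) there was 1 in heart and 1 in muscle, where 7.51% and 2.48% of all tested probes were at this level. The dimmer probe of Ndufv3 stood at -0.56, -0.82 and -0.26 in WT muscles and 0.08, 0.62 and 0.16 in Rap1 KI/KI muscles, a difference of 0.83 (SE 0.24, limma adjusted p = 0.939) without overlap, where 6.44% of all tested probes in muscle did not overlap. The dimmer probe of Ndufb5 had a Rap1 KI/KI minus WT difference of -0.80 in heart (SE 0.27, limma adjusted p = 0.646). Ndufa4 stood at 5.67 and 6.05 in the livers of WT1 and KI1, the mice of 5 months, and between 6.37 and 7.05 in the other 4 livers. These genes were named after their values were seen.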
